A study of Mus musculus with 20 samples.

Results

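The retinoic acid receptors Rara, Rarb and Rarg and the retinoid X receptors Rxra, Rxrb and Rxrg were described across mouse spermatogenesis by taking the rows of the RNA count table that carry these names. All 6 were found among the 23366 genes of the table. RNA was sequenced from wild-type C57Bl/6J mice, with 2 biological replicates per stage, that is 10 libraries in 5 groups. The first 3 groups were whole testis at day 1, day 3 and day 7 postpartum, which contains somatic cells and germ cells together. The other groups were leptotene and zygotene spermatocytes, isolated in combination, and pachytene spermatocytes, both separated by size and density (STA-PUT) from adult mice of 70 to 80 days. Purity of those fractions was judged by the submitters under the microscope, and no treatment or mutation was applied in any group. The step from day 7 to the leptotene/zygotene fraction therefore changes tissue composition, age and purification together, and these cannot be told apart.

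Retinoic acid is made from vitamin A inside the testis, and germ cells need it to leave the undifferentiated spermatogonial state and to enter meiosis. It binds the retinoic acid receptors (RARs), which sit on DNA as heterodimers with a retinoid X receptor (RXR). RXRs also pair with other nuclear receptors, such as those for thyroid hormone, vitamin D and oxysterols. Without ligand the RAR-RXR dimer holds corepressors, and with ligand it exchanges them for coactivators. Rara is known for a role in both Sertoli cells and germ cells, Rarg for a role in spermatogonia that differentiate, and Rxrb for a role in Sertoli cells.

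The best known binding site of the RAR-RXR dimer is a pair of hexamers in the same orientation with 5 bases between them, called DR5. RefSeq promoter windows on GRCm38.p6, from 250 bases before to 50 bases after each annotated start, were searched on both strands for pairs in which each hexamer was AGGTCA, or the variant GGGTCA, or the variant AGTTCA, or the variant GGTTCA. Such a DR5 was present in 32 of 32851 windows, or 0.097%. Among the windows of the 6 receptors, 4 for Rara, 1 for Rarb and 2 for each of the others, a DR5 was found only in that of Rarb. For comparison the windows of Cyp26a1, a retinoic acid degrading enzyme, and Stra8, a germ cell gene induced by retinoic acid, are shown. The stretches below were chosen because they contain the matches, which stand in capitals and are descriptions of sequence, not measured binding.
Rarb, chr14:16575477-16575576, minus strand: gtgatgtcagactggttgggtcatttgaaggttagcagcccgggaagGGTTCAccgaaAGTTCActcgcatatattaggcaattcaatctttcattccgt
Cyp26a1, chr19:37697708-37697807, plus strand: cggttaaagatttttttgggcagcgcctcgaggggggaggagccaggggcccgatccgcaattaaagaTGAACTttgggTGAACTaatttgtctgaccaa
Stra8, chr6:34920748-34920947, plus strand: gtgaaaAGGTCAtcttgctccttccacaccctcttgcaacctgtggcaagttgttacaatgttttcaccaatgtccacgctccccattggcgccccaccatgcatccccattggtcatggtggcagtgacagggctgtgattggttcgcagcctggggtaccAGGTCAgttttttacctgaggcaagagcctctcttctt
The Rarb pair lies 53 to 37 bases before the start. The Cyp26a1 pair lies 32 to 16 bases before its start, with the hexamers read on the opposite strand. Stra8 carries single hexamers and no DR5. A single hexamer is common, being present in 43.706% of all windows and in 1 or more windows of 46.905% of all genes. Among the receptors it was found in 2 of 4 windows for Rara, 1 of 1 for Rarb and 1 of 2 for Rarg. For Rxra it was found in 1 of 2 windows, for Rxrb in 0 of 2 and for Rxrg in 2 of 2.

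Between 3597360 and 22181395 reads per library fell on genes, and levels are given as CPM, the counts of a gene divided by the library size, which was scaled by trimmed mean of M-values (TMM). The leptotene/zygotene replicate 1 was the shallowest library, so that 3 counts there correspond to 1.46 CPM. Replicates agreed less well in the spermatocyte fractions, where the SD of the log2 difference between replicates was 1.17 (leptotene/zygotene) and 0.968 (pachytene), against 0.304 to 0.633 in testis. The 9 Sertoli cell markers summed to 3473 to 4730 CPM in testis, 49.2 to 138 CPM in the leptotene/zygotene fraction and 225 to 292 CPM in the pachytene fraction. The 8 leptotene/zygotene markers summed to 142 to 262 CPM in the fraction of that name and to 261 to 541 CPM in the pachytene fraction. The 10 spermatid markers reached 67002 to 72092 CPM in the leptotene/zygotene fraction and 5756 to 9020 CPM in the pachytene fraction. In testis they summed to 38.3 and 39.4 CPM at day 1, 4.73 and 31.7 CPM at day 3, and 3.86 and 4.18 CPM at day 7. The source of these reads at day 1 and in day 3 replicate 2 was not tested, which limits comparisons with those libraries. The fraction labelled leptotene/zygotene thus carried more spermatid transcripts than the pachytene fraction and no higher level of its own markers. Later and earlier, for the fractions, follow the labels below, and an order of changes in development was not tested. Prm2, a protamine of condensing spermatids, stood at 21759 ± 26.3 CPM (SD, n = 2) in the leptotene/zygotene fraction.

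**Figure D1:**
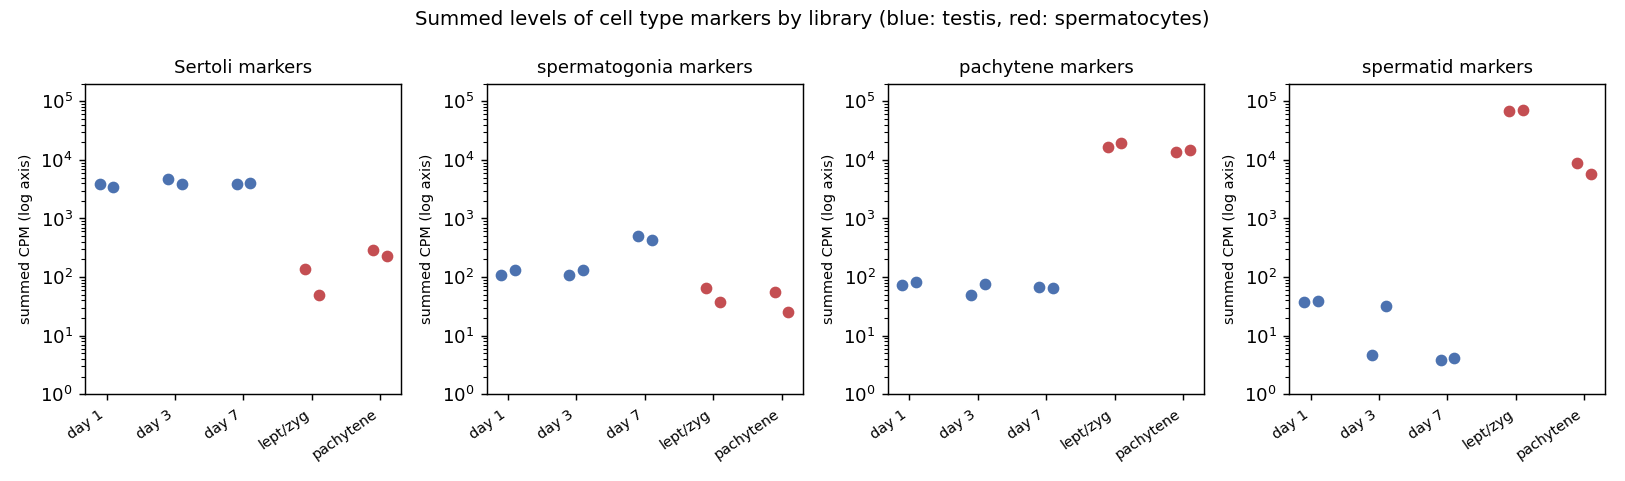
Summed CPM (log axis) of 4 cell type marker lists in each of the 10 libraries, 1 point per library, for the 5 stages on the horizontal axis. Sertoli markers lie at 3473 CPM or above in testis and at 292 CPM or below in the spermatocyte fractions, and spermatid markers peak in the leptotene/zygotene fraction.

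Among the retinoic acid receptors, Rara and Rarg showed no called change among the testis stages and were several-fold lower in spermatocytes. Rara measured 133 and 108 CPM at day 1, 134 and 133 CPM at day 3, and 116 and 107 CPM at day 7. It measured 9.73 and 20.3 CPM in the leptotene/zygotene fraction and 9.97 and 17.6 CPM in the pachytene fraction. All 6 testis libraries lay above all 4 spermatocyte libraries, and among the testis stages the neighbours in the order day 3, day 1, day 7 overlapped, as did both fractions. For Rarg the values were 20.2 and 20.2 CPM at day 1, 23.2 and 15.1 CPM at day 3, and 21.4 and 18.6 CPM at day 7. In the fractions Rarg measured 2.43 and 3.91 CPM (leptotene/zygotene) and 3.05 and 4.54 CPM (pachytene). As for Rara, all testis libraries lay above all spermatocyte libraries, and neighbouring stages within each set overlapped.

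Rarb, which is itself a well known retinoic acid target, was close to the detection limit and had another course. It measured 3.08 and 4.06 CPM at day 1 (25 and 47 counts), 2.03 and 2.12 CPM at day 3 and 1.32 and 0.921 CPM at day 7 (24 and 15 counts). The 3 testis stages did not overlap, each later age lying lower. In the leptotene/zygotene fraction it measured 0.973 and 1.10 CPM from 2 and 11 counts, which overlapped with day 7. In pachytene replicate 1 it had 4 counts, and in replicate 2 it had 0, where 3 counts would be 0.413 CPM.

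Among the retinoid X receptors, Rxra and Rxrb were both lower in spermatocytes, and Rxra but not Rxrb was separated between the fractions. Rxra measured 150 and 148 CPM at day 1, 99.9 and 121 CPM at day 3, and 106 and 108 CPM at day 7. It was then 27.7 and 44.9 CPM in the leptotene/zygotene fraction and 12.2 and 12.0 CPM in the pachytene fraction. Only day 3 and day 7 overlapped among the neighbours in this descending order. Rxrb measured 50.5 and 52.8 CPM at day 1, 64.1 and 47.2 CPM at day 3, and 56.2 and 57.4 CPM at day 7. It measured 20.9 and 32.0 CPM in the leptotene/zygotene fraction and 20.8 and 30.3 CPM in the pachytene fraction, and those fractions overlapped.

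Rxrg was highest in the fraction labelled leptotene/zygotene, the one with the high spermatid markers, at very low counts, whereas its pachytene level lay below that of day 1. It measured 0.986 and 0.777 CPM at day 1, 0.300 and 0.163 CPM at day 3, and 0.386 and 0.430 CPM at day 7, from 2 to 9 counts a library. In the leptotene/zygotene fraction it measured 2.92 and 2.61 CPM from 6 and 26 counts, and in the pachytene fraction 0.610 and 0.551 CPM from 3 and 4 counts. All 6 receptors passed the filter on low counts, but Rxrg passed only through the leptotene/zygotene libraries, where it is high, and Rarb only through testis libraries. Transcript lengths were not used here, so levels are compared between stages and not between genes.

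Counting receptors whose libraries did not overlap between stages gives the following. From day 1 to day 3, 0 lay above and 3 below (Rarb, Rxra, Rxrg), against 22.5% and 23.7% of all genes. From day 3 to day 7, 1 lay above (Rxrg) and 2 below (Rara, Rarb), against 28% and 29.5%. Between day 1 and day 7, 1 lay above (Rxrb) and 3 below (Rarb, Rxra, Rxrg), against 35.8% and 35.5%. From day 7 to the leptotene/zygotene fraction 1 lay above (Rxrg) and 4 below (Rara, Rarg, Rxra, Rxrb), against 40.4% and 48.8%. From there to the pachytene fraction 0 lay above and 3 below (Rarb, Rxra, Rxrg), against 21.5% and 27.7%. Rxrg is among the genes compared only through the leptotene/zygotene libraries, where it is high. Its place in the counts to and from that fraction therefore supports nothing by itself.

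**Figure D2:**
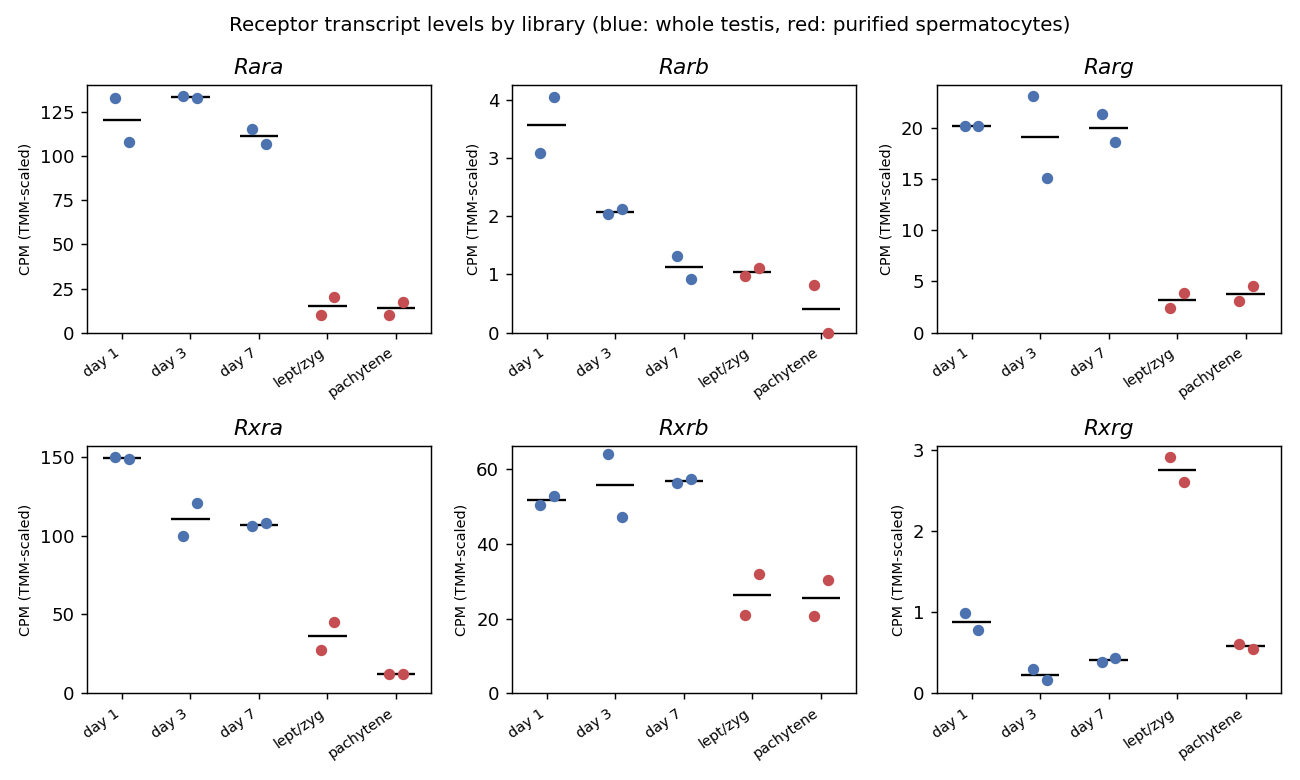
TMM-scaled CPM (vertical axis, linear, starting at 0) of the 6 receptors in each library over the 5 stages (horizontal axis), with 1 point per library and a line at the mean of 2 replicates. Rara, Rarg, Rxra and Rxrb are lower in all 4 spermatocyte libraries than in all 6 testis libraries, and Rxrg is highest in the leptotene/zygotene fraction.

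During the first week no receptor passed the test in edgeR's quasi-likelihood fit of all 10 libraries. From day 1 to day 3, 0 of the 6 receptors were called at an adjusted p under 0.05, as were 0 of the 16872 genes tested, a background of 0%. Without adjustment 1097 genes reached p under 0.05, and 79 were called by DESeq2. From day 3 to day 7, 0 receptors were called against 1.49% of all genes, and from day 1 to day 7, 0 against 3.36%. For Rara the log2 change from day 1 to day 7 was -0.11 ± 0.34 (SE), for Rarg -0.02 ± 0.32 and for Rxrb 0.14 ± 0.29.

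The Rarb difference between day 1 and day 7 was -1.66 ± 0.59 on the log2 scale, with an unadjusted p of 0.0194 and an adjusted p of 0.158. Its counts, 72 and 39 over the pairs of libraries, gave a ratio of 0.310 with a 95% counting interval of 0.205 to 0.464. Counting intervals here and below cover counting error only and leave out the spread between replicates. The adjusted p changed with the libraries fitted, being 0.0183 with only the testis libraries and 0.00193 with day 1 and day 7 alone. For Rxra the change was -0.48 ± 0.26, with an adjusted p of 0.383 in all libraries, 0.0558 with only the testis libraries and 0.000286 with day 1 and day 7 alone. Both smaller fits called far more of all genes than the 567 called with all libraries, as given below. A lower adjusted p in them was thus not confined to the receptors. The corresponding Rxrg change from day 1 to day 3 was -1.76 ± 0.53 with an adjusted p of 0.565, from 17 and 11 counts.

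Between day 7 testis and the leptotene/zygotene fraction Rara, Rarg, Rxra and Rxrb fell, and Rxrg was higher. In bulk RNA such as this, fewer cells of a type and less RNA per cell cannot be told apart. Rara fell by 2.82 ± 0.38 on the log2 scale (7.05-fold lower, adjusted p = 8.29e-05). The Rarg fall was of similar size, at -2.54 ± 0.38 (5.83-fold lower, adjusted p = 0.000169). Rxra changed by -1.53 ± 0.27 (2.89-fold lower, adjusted p = 0.000485), and Rxrb by -1.08 ± 0.30 (2.11-fold lower, adjusted p = 0.00799). The difference between members was not tested. Rxrg differed by 2.70 ± 0.49 (adjusted p = 0.000577), but it was admitted to this test through the leptotene/zygotene libraries, where it is high, so that call supports nothing by itself. In a fit with no filter on low counts the Rxrg change was 2.73 ± 0.62 (adjusted p = 0.00105). Its 32 counts against 14 gave a ratio of 6.53 with a 95% counting interval of 3.39 to 13.3.

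Rarb did not pass, with a log2 change of -0.08 and a 95% interval of -1.71 to 1.56, wide enough to hold the changes of Rxra and Rxrb. Of all genes 78.5% were called in this comparison, 42% lower and 36.5% higher, and 4 of the 5 receptors other than Rxrg were called, which is near the background. The median of the receptors' log2 changes was -1.30 and that of all genes -0.31. That median moved with the scaling, from -1.71 with plain library sizes to 0.01 with median-ratio factors. Relative to it, over 4 scalings, Rara lay between -2.53 and -2.51, Rarg between -2.27 and -2.24, Rxra between -1.23 and -1.22, Rxrb at -0.77, Rarb between 0.18 and 0.23 and Rxrg between 3.00 and 3.02. With each of the 10 libraries left out in turn, the log2 change of Rara lay between -3.54 and -2.46. Over the same fits Rarg lay between -3.05 and -2.36, Rxra between -1.97 and -1.26 and Rxrb between -1.46 and -0.84.

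Markers of 5 somatic cell types were lower in the fraction than at day 7, and their part in the falls of the receptors was not tested. Clu, a secreted Sertoli cell protein and the most abundant gene of the Sertoli list, went from 1669 ± 9.50 to 45.1 ± 34.5 CPM (SD, n = 2). Summed markers went from 366 to 549 CPM down to 5.61 to 19.9 CPM for Leydig cells and from 948 to 984 CPM down to 46.4 to 104 CPM for peritubular cells. The sums went from 195 to 197 CPM down to 13.8 to 43.3 CPM for endothelial cells, and from 87.9 to 110 CPM down to 13.9 to 23.8 CPM for macrophages. Spermatogonia markers, 8 genes, summed to 434 to 504 CPM at day 7 and 38.1 to 65.7 CPM in the fraction, with Neurog3 at 0 counts there. Pachytene markers went from 64.4 to 68.8 CPM up to 16895 to 19215 CPM. Within the leptotene/zygotene fraction, replicate 1 had the higher Sertoli marker sum (138 against 49.2 CPM) and the lower Rara, Rarg, Rxra and Rxrb. In the pachytene fraction replicate 1 had the higher Sertoli sum (292 against 225 CPM) and the lower Rara, Rarg and Rxrb. Rxra was 12.2 CPM in replicate 1 and 12.0 CPM in replicate 2 there. Leptotene/zygotene replicate 1 is the shallowest library, with 20 counts of Rara and 5 of Rarg. Deviations of same-numbered libraries correlated at 0.640 between the fractions, so the fractions are not separate observations. A relation between Sertoli marker sums and receptor levels was not tested. All 10 spermatid markers rose in the step in which Rxrg was higher, and the part of spermatid RNA in the Rxrg level was not tested.

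In the pachytene fraction Rxra was lower than in the leptotene/zygotene fraction, while Rxrb, Rara and Rarg showed no called change. Rxra fell by 1.61 ± 0.28 on the log2 scale (3.05-fold lower, adjusted p = 0.00452), from 36.3 ± 12.1 to 12.1 ± 0.163 CPM (SD, n = 2). Rxrb changed by -0.07 with a 95% interval of -0.75 to 0.61, and Rara by -0.18 with an interval of -1.02 to 0.65. Rarg differed by 0.17 ± 0.41. The Rxra call held with each library left out (largest adjusted p 0.0271), and was lost when only the leptotene/zygotene and pachytene libraries were fitted (-1.43, adjusted p = 0.0816).

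Rxrg differed by -2.21 ± 0.54 (adjusted p = 0.0190), again as a gene admitted only through the leptotene/zygotene libraries, and by -2.21 ± 0.68 (adjusted p = 0.0372) in the fit with no filter. Its 7 counts against 32 gave a ratio of 0.216 (95% counting interval 0.0805 to 0.499). This call was lost without either day 1 library, either day 7 library, leptotene/zygotene replicate 2 or either pachytene library, with adjusted p of 0.0541 to 0.0939. Of the receptors other than Rxrg, 1 of 5 was called, against 22.2% of all genes, 13.2% lower and 9.03% higher. Rarb, with 4 counts against 13, gave a log2 change of -1.61 ± 0.98 (adjusted p = 0.279), and it passed only without pachytene replicate 1, where the remaining library has 0 counts (adjusted p = 0.0296). Spermatid markers fell in 6 of 10 cases over the same step, and their part in the Rxra and Rxrg differences was not tested.

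**Figure D3:**
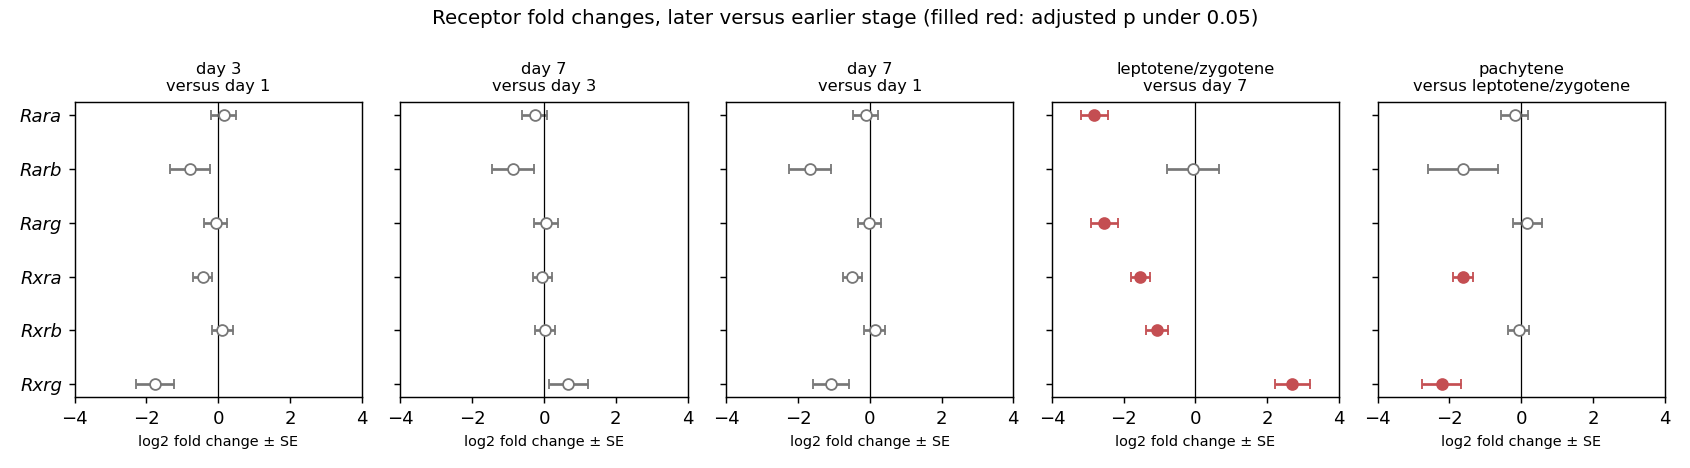
Log2 fold change of each receptor (horizontal axis, bars are the standard error from edgeR) in 5 comparisons of a later with an earlier stage, red and filled where the adjusted p is under 0.05. No receptor is called among the testis stages, 5 are called between day 7 and the leptotene/zygotene fraction, and Rxra and Rxrg are called between the spermatocyte fractions. Rxrg was admitted to the test only through the leptotene/zygotene libraries, where it is high, so its calls support nothing by themselves.

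Ratios of counts within a library do not depend on how libraries are scaled, and they changed between the RXR genes. The log2 ratio of Rxra to Rxrb counts was 1.57 and 1.49 at day 1, 0.639 and 1.35 at day 3, and 0.912 and 0.912 at day 7. It was 0.407 and 0.490 in the leptotene/zygotene fraction and -0.766 and -1.34 in the pachytene fraction. The pachytene libraries lay below all others, and day 1 above all others. Expressed as a share of the 3 RXR genes' counts, Rxrb made up 25.1% and 26.1% at day 1. The share was 40.6% (95% exact Clopper-Pearson interval 31.1 to 50.5) and 40.2% (36.8 to 43.7) in the leptotene/zygotene fraction. In the pachytene fraction it was 61.8% (53.9 to 69.3) and 70.7% (65.3 to 75.7). The intervals cover counting error only, and since the transcripts differ in length the shares are not shares of molecules.

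The log2 ratio of Rara to Rxra was between -0.46 and 0.43 in testis, -1.51 and -1.14 in the leptotene/zygotene fraction, and -0.29 and 0.56 in the pachytene fraction. It was thus lowest in the leptotene/zygotene libraries, where Rara lay further below its day 7 level than Rxra did. The log2 ratio of Rara to Rarg moved less, from 2.42 to 3.14 in testis to 1.71 and 1.96 in the pachytene fraction. The summed RAR counts over the summed RXR counts had a log2 ratio of -0.61 to -0.04 in testis, -1.97 and -1.65 in the leptotene/zygotene fraction and -1.28 and -0.95 in the pachytene fraction. With 2 libraries a stage, a permutation test of these ratios between a pair of stages cannot pass the threshold, and none is given.

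**Figure D4:**
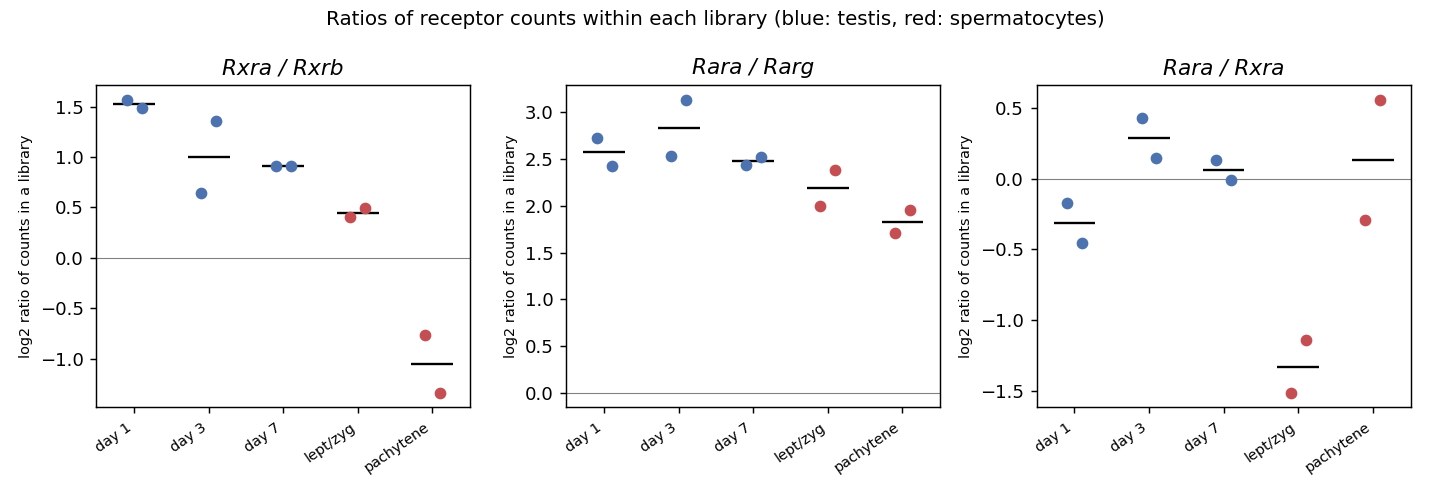
Log2 ratio of the counts of a pair of receptors within each library (vertical axis) over the 5 stages (horizontal axis), with 1 point per library and a line at the mean. Rxra over Rxrb is above 0 in testis and in the leptotene/zygotene fraction and below 0 in both pachytene libraries, and Rara over Rxra is lowest in the leptotene/zygotene fraction.

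Of the genes that make, carry and remove the ligand, most passed the test in the step from day 7 to the leptotene/zygotene fraction, as most genes did. In the first week only Crabp1 and Stra8 passed the test among the pathway lists. Crabp1, a cytosolic retinoic acid binding protein, rose from 2.06 and 3.50 CPM at day 3 to 31.4 and 24.6 CPM at day 7 (log2 change 3.36 ± 0.37, adjusted p = 0.00921). Stra8 rose from 1.63 and 3.26 CPM to 52.1 and 37.6 CPM (log2 change 4.24 ± 0.46, adjusted p = 0.00921). Over that interval the receptors' log2 changes lay between -0.87 and 0.68 and none passed. In fits without either day 7 library both calls were lost, with adjusted p of 0.0989 and 0.138 for each gene and log2 changes of 3.02 to 3.39 for Crabp1 and 3.83 to 4.32 for Stra8. Spermatogonia markers summed to 109 to 131 CPM at day 3 and 434 to 504 CPM at day 7, and their part in the Crabp1 and Stra8 rises was not tested.

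Between day 7 and the leptotene/zygotene fraction 2 of 5 tested synthesis genes rose and 3 fell, against 36.5% and 42% of all genes, a background that applies to every list in this step. Aldh1a2, a retinaldehyde dehydrogenase of germ cells, rose by 2.11 ± 0.35 on the log2 scale (0.70, adjusted p = 0.0555, with plain library sizes), and Rdh11, a retinol dehydrogenase, by 4.93 ± 0.29. Aldh1a1, a retinaldehyde dehydrogenase of Sertoli cells, fell by 5.92 ± 0.71, from 675 and 703 CPM to 22.4 and 3.91 CPM. Of 5 uptake and storage genes 1 rose, Lrat, which esterifies retinol (5.16 ± 0.39), and 4 fell, among them the retinol transporter gene Stra6 (-4.61 ± 0.40). Rbp4, also counted as falling, was at -1.06 with DESeq2 and with median-ratio factors and did not pass there (adjusted p 0.0952 and 0.0821). Its call was also lost without day 7 replicate 1 or leptotene/zygotene replicate 2. The synthesis gene Rdh10, counted as falling, was at -0.93 with median-ratio factors (adjusted p = 0.0526). Its call was also lost without leptotene/zygotene replicate 1. The synthesis list had a median log2 change of -1.23 and the uptake and storage list one of -1.75, against -0.31 for all genes.

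Both tested breakdown genes fell. Cyp26b1 went from 285 and 326 CPM to 21.4 and 4.41 CPM (-4.77 ± 0.72, adjusted p = 0.000177), and Cyp26a1, at 0 counts in both leptotene/zygotene libraries, was at least 7.75-fold lower. The calls of Cyp26a1 (adjusted p = 0.0806) and Crabp2 (0.163) were lost without leptotene/zygotene replicate 2. All 3 retinoic acid binding protein genes fell, Crabp1 with a log2 change of -4.51 ± 0.45, Crabp2 at least 3.42-fold and Fabp5 at least 36.2-fold; these bounds take 3 counts over the leptotene/zygotene group in place of 0. Of 6 tested retinoic acid responsive genes 1 rose and 3 fell, so that the share called was below the 78.5% of all genes. Rec8, a meiotic cohesin gene, rose by 3.30 ± 0.59, whereas the log2 change was -2.66 ± 0.44 for Stra8, -2.77 ± 0.53 for Kit, a receptor of differentiating spermatogonia that is also in the spermatogonia marker list, and -3.38 ± 0.76 for Tgm2.

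Receptors that share RXR as a partner moved in both directions, 3 of 10 tested rising and 5 falling, a share called near the 78.5% of all genes, with a median of -0.74 against -0.31 for all genes. Nr1h3, the oxysterol receptor LXR alpha, rose from 0.828 and 0.921 CPM at day 7 to 20.9 and 32.0 CPM (log2 change 4.93 ± 0.42, adjusted p = 4.45e-06). Nr4a1, an orphan receptor, rose by 1.59 ± 0.30, but by 0.21 (adjusted p = 0.501) with plain library sizes. Pparg, a fatty acid receptor, rose by 1.47 ± 0.47, but by 0.07 (adjusted p = 0.944) with plain library sizes. With upper-quartile factors its change was 1.08 (adjusted p = 0.0638). Without day 7 replicate 1, day 7 replicate 2 or leptotene/zygotene replicate 2 it was 1.17, 1.54 and 1.63. The Pparg call was lost in each of these fits. Those that fell included Thra, a thyroid hormone receptor (-4.24 ± 0.32), Vdr, the vitamin D receptor (-4.67 ± 0.77), and Ppard (-3.63 ± 0.43). Ppara, also counted as falling, was at -0.75 with DESeq2 and with median-ratio factors and did not pass there (adjusted p 0.144 and 0.119). From the leptotene/zygotene to the pachytene fraction Nr4a1 (-1.68 ± 0.30) and Thra (-1.31 ± 0.33) fell, and no partner gene passed in the other direction. The Thra call was lost without either day 7 library, leptotene/zygotene replicate 2 or pachytene replicate 2 (adjusted p 0.0548 to 0.226), and the Nr4a1 call held with each library left out. No gene of the synthesis, uptake and storage, breakdown, binding or responsive lists passed in that step.

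**Figure D5:**
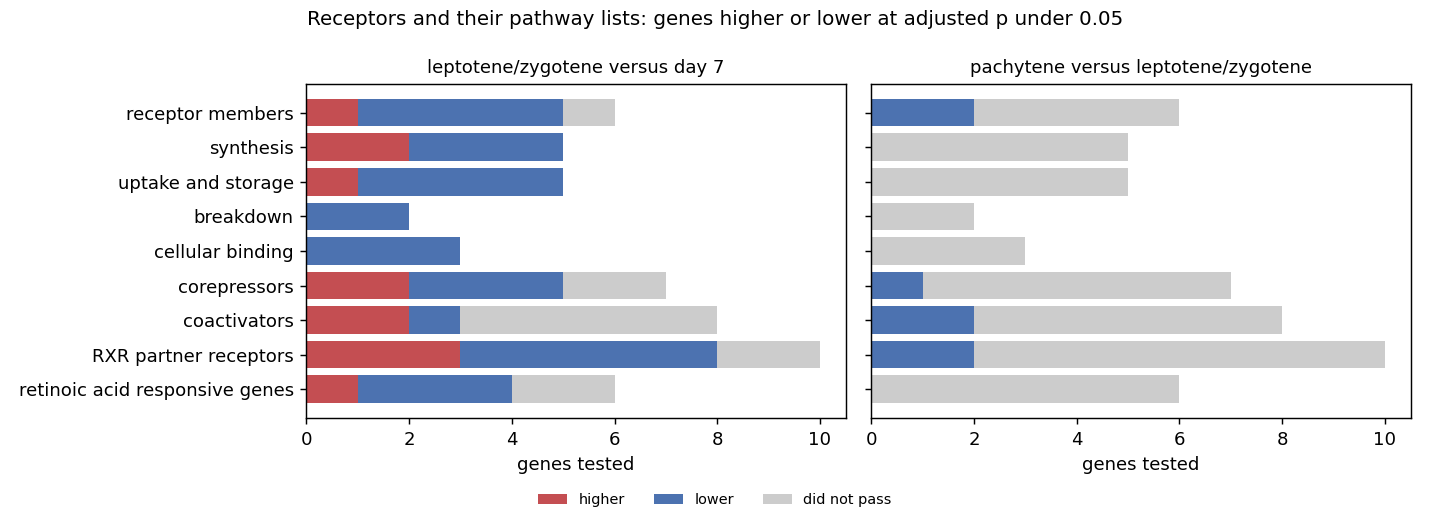
Number of tested genes (horizontal axis) of the receptors and of 8 pathway lists (vertical axis) that were higher, lower or did not pass at an adjusted p under 0.05, in the comparison of the leptotene/zygotene fraction with day 7 (left) and of pachytene with leptotene/zygotene (right). Most called genes are in the left comparison, where 78.5% of all genes were called.

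The genes whose course over the 10 libraries was most like that of each receptor were found by Pearson's r of log2 CPM among 11518 genes with a mean of at least 10 CPM. These libraries fall into testis and spermatocytes, so r is mostly set by that step, and it is given as a description. For Rara they were Bcar1 (0.997), Gramd1a (0.997) and Mthfd1 (0.996). For Rarg they were Nr2f6 (0.995), Rbpms (0.994) and Rnaseh2b (0.993), and for Rxra they were Dip2c (0.995), Stag2 (0.994) and Dip2a (0.994). For Rxrb the gene with the highest value was Suv420h2 (0.991). Rarb (Purb 0.953, Spg20 0.934, Atxn1 0.932) and Rxrg (Tmod2 0.915, Prkcd 0.909, Glrx2 0.908) had lower values, and both have few counts. Tmod2 stood at 47.9 ± 1.25 CPM at day 7, 219 ± 27.0 CPM in the leptotene/zygotene fraction and 63.5 ± 0.832 CPM in the pachytene fraction (SD, n = 2). Among the receptors themselves Rara and Rarg correlated at 0.986 over the 10 libraries and at -0.06 over the 6 testis libraries.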

How the data were processed

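RNA was sequenced from 2 libraries for each of 5 stages. The deposited table holds raw counts of reads per gene, and the mm9 build, HTSeq 0.6.1, Bowtie 0.12.7, edgeR 3.6.8 and BWA 0.7.8 are named, without a role or order, in the processing notes of the submitters. The small RNA table was not used here. The 5 summary rows that name no gene (44.7% to 64.5% of reads per library) were kept out. Counts were fitted in edgeR 4.0.16 (R 4.3.3) with TMM scaling, a filter at a minimum count of 10 and the quasi-likelihood F test on all 10 libraries. This left 16872 genes, with Benjamini-Hochberg adjustment over all of them. The SE is the log2 fold change divided by the square root of F. The labels state biological replicates without saying whether animals were pooled.

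Named genes were the 6 receptors, the 3 genes most like each by correlation, up to 3 called genes of largest change per pathway list and comparison, Stra8, Crabp1 and Cyp26b1, and the most abundant gene of marker lists; some genes that the rule names are not reported here. Members and lists were chosen with earlier results of these data known. Shares per kilobase were planned and could not be made, because transcript lengths were not used here, so raw count shares are given. Strand handling of the counting is not given in the sources used here. The fits were also run on simulated counts that had a common dispersion for all genes and groups. Such counts leave out the unequal spread between replicates seen here, so they do not show how the fits behave under it. Alternatives were DESeq2 1.42.0, other scalings, no filter, fewer stages in the fit, a replicate block and each library left out.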

Additional observations from a re-analysis of the deposited data

How the results depend on the processing

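Between day 7 and the leptotene/zygotene fraction Rara, Rarg, Rxra, Rxrb and Rxrg kept their direction under the alternatives run. Rxrg was admitted through the leptotene/zygotene libraries, where it is high, so its call supports nothing by itself. Counts of called receptors in some other comparisons moved. From day 1 to day 7 the count was 2 with only those stages fitted, where 6800 of all genes were called. It was 1 with only testis libraries, where 2962 of all genes were called. From leptotene/zygotene to pachytene it was 1 with plain library sizes, and it also moved with a library left out. With only those stages fitted it was 0, but Rarb and Rxrg fell below the filter there and were not tested. Counts of called genes also moved. From day 1 to day 3 DESeq2 called 79 and a fit of testis alone 7, with 0 to 35 over libraries left out. From day 3 to day 7 they were 1026 (DESeq2), 437 (no filter), 1019 (those stages only) and 2126 (testis only), with 0 to 632 over libraries left out. From day 1 to day 7 they were 1615, 6800 (those stages only) and 2962 (testis only), with 0 to 1143 over libraries left out. From day 7 to leptotene/zygotene the leave-one-out range was 11724 to 13736. From leptotene/zygotene to pachytene 930 (those stages only) and 2322 (3 nearest stages) were called, with 2076 to 5071 over libraries left out. The cause was not tested.

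Changes that turned sign were all uncalled. With DESeq2 or median-ratio factors Rarg from day 3 to day 7 was -0.0238 and -0.0216, Rxrb -0.0500 and -0.0491, and Rarb from day 7 to leptotene/zygotene 0.22 and 0.21 (0.0480 with those stages only). With plain library sizes Rxra from day 3 to day 7 was 0.0070, Rarg from day 1 to day 7 0.0176 (0.0096 with testis only), and from leptotene/zygotene to pachytene Rara was 0.41 and Rxrb 0.51. In that last comparison Rara was 0.0307 with those stages only and 0.0062 with 3 stages, and Rxrb was 0.0521 with upper-quartile factors, 0.10 with those stages only and 0.0942 with 3 stages. Over libraries left out, Rarg ranged from -0.37 to 0.34 and Rxrb from -0.0855 to 0.45 from day 1 to day 3, Rarg from -0.41 to 0.31 and Rxrb from -0.37 to 0.17 from day 3 to day 7, Rarg from -0.17 to 0.0383 from day 1 to day 7, and Rarb from -0.47 to 0.0650 from day 7 to leptotene/zygotene. From leptotene/zygotene to pachytene Rara ranged from -0.68 to 0.53, Rarg from -0.18 to 0.68 and Rxrb from -0.38 to 0.30. With plain library sizes the Rxrg fall in that comparison was -1.62 (adjusted p = 0.0515).

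The same alternatives, applied to pathway genes after seeing the data, left 3 genes with a turned sign between day 7 and leptotene/zygotene with plain library sizes, Tbl1xr1 (-0.60), Med1 (-0.15) and Kat2b (-0.31).

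With the replicate number as a block the receptor calls were the same, with Rxra at -1.59 (adjusted p = 0.00478) and Rxrg at -2.24 (0.0268) from leptotene/zygotene to pachytene. Deviations of same-numbered libraries correlated at 0.640 between those fractions and between -0.11 and 0.02 for other pairs of groups, and the labels do not say what a number shares. The replicates of those fractions thus deviated together, and whether they share a preparation was not tested. The block is a single term shared by all stages, so it does not model a pairing within those fractions alone. Depth limits Rarb and Rxrg most, with 0 to 11 and 3 to 26 counts in the spermatocyte libraries.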

Other observations

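The coregulators that RAR-RXR dimers recruit moved in both directions between day 7 testis and the leptotene/zygotene fraction. Of 7 corepressor genes 2 rose and 3 fell, against 36.5% and 42% of all genes. Tbl1x, a subunit of a corepressor complex, fell by 4.72 ± 0.54, whereas Gps2, another subunit, rose by 2.61 ± 0.60 (1.17, adjusted p = 0.0733, with plain library sizes). Tbl1xr1, a relative of Tbl1x, had a log2 change of 0.80 ± 0.23. This was 0.44 (adjusted p = 0.0631) with upper-quartile factors and turned to -0.60 with plain library sizes, where it passed as lower. Without day 7 replicate 1 or replicate 2 the Tbl1xr1 change was 0.66 and 0.68, and the call was lost. Of 8 coactivator genes 3 were called, a share below the 78.5% of all genes. Ep300 fell (-1.36 ± 0.30). Med1 was higher by 1.23 ± 0.28 and Kat2b by 1.08 ± 0.28, and both turned sign with plain library sizes, to -0.15 and -0.31. From the leptotene/zygotene to the pachytene fraction Kat2b (-1.07 ± 0.28) and Carm1 (-1.27 ± 0.36) were called lower, and each call was lost in most fits with a library left out. The median log2 change between day 7 and leptotene/zygotene was -0.45 for corepressors and -0.20 for coactivators, against -0.31 for all genes.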
